A study of Homo sapiens with 24 samples.

Results

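FGF8 and KCNIP2 lie near each other on chromosome 10 and were examined here in a 100 kb window (hg19, positions 103520000 to 103620000) that holds 12 of the 153244 regions counted in the series. The window was chosen by its H3K4me3 counts: this histone mark of active promoters was higher at 2 of its regions after knockdown of ZNF436. One lies in the FGF8 span and the other at the upper end of the KCNIP2 span. H3K4me3 values are therefore given as a description. The calls that chose the window support nothing wherever they are counted. Only H3K27ac, H3K4me1 and H3K9me3 come from libraries that the choice did not use.

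FGF8 encodes a secreted fibroblast growth factor that binds FGF receptors together with heparan sulfate. It is known from embryos for its part in mesoderm migration and in the growth of the second heart field and the outflow tract, and it is an early signal rather than a product of mature heart muscle. KCNIP2 encodes KChIP2, a calcium-binding subunit of Kv4 potassium channels that brings them to the cell surface and slows their inactivation. These channels carry the transient outward current that shapes the early repolarisation of ventricular muscle cells. RefSeq (GRCh38.p14) places NPM3, a gene of the nucleoplasmin family of histone chaperones, and OGA, which encodes the enzyme that removes O-GlcNAc from proteins, between them, with FBXW4 below FGF8 and ARMH3 above KCNIP2. FGF8 and KCNIP2 are transcribed from the reverse strand, so that their outermost starts are at the upper ends of their spans.

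The study used ventricular-like cardiomyocytes derived from H9, a human embryonic stem cell line, at day 15 of differentiation. Cells with a knockdown (ZNF436kd) of ZNF436, which encodes a zinc finger protein, were compared with control (ctrl) cells, with 3 libraries of each group for each of 4 histone marks. CUT&Tag, in which an antibody tethers a transposase to marked nucleosomes, was used for H3K4me3, for H3K27ac, a mark of active promoters and enhancers, for H3K4me1, a mark of enhancers, and for H3K9me3, a mark of silenced chromatin. The sources used here do not describe the knockdown itself, and all cells come from a single line. Total counts were 11023905 to 13933927 per H3K4me3 library, 2955710 to 3681687 for H3K27ac, 3920283 to 4936265 for H3K4me1 and 2103185 to 2880412 for H3K9me3. Because no hg19 gene annotation was used, neither the level at ZNF436 nor cardiomyocyte marker genes were checked against the labels. In H3K4me3, H3K27ac and H3K4me1, the mark's own library labelled control replicate 3 lay nearest to the knockdown libraries at several regions below. These are separate libraries, and no label says that they share cells. A fit without the mark's control replicate 3 is given where it changed a call or moved a value most. As these libraries were picked by these same values, such a fit shows only how far a value rests on the library left out. In libraries of many cells, a higher signal in every cell and more cells carrying the mark cannot be told apart.

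The regions are numbered 1 to 12 in order of position. FGF8 spans about 103529900 to 103540100 and KCNIP2 about 103585700 to 103603700. The FGF8 span is touched by 5 regions (numbers 2 to 6), the KCNIP2 span by 3 (9 to 11), and 2 (7 and 8) lie between the spans. Region 1 lies below FGF8 and region 12 above KCNIP2. Together they cover 23415 bp, and their widths range from 275 to 5341 bp, with a median of 708 bp over all regions of the series. Signal is given as CPM, the counts of a region scaled to the library's total over regions with enough counts to be tested. CPM per kb of region are given where regions are compared with each other.

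**Figure D1:**
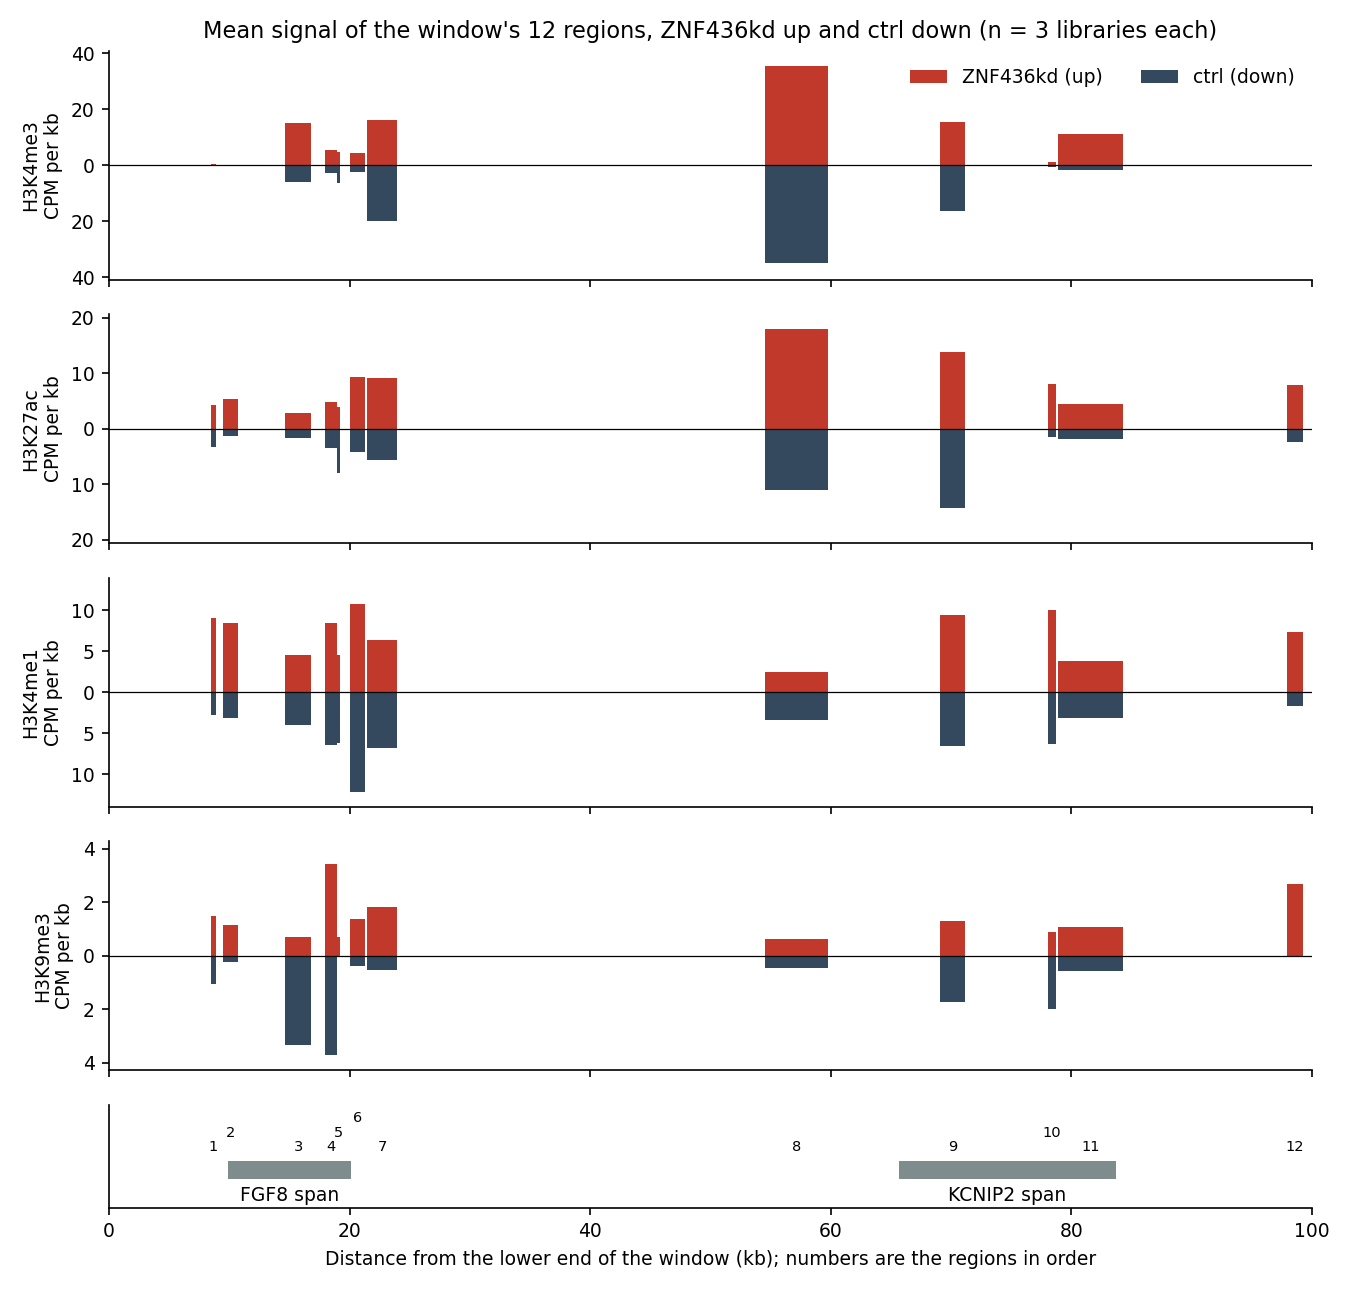
Mean CPM per kb of the 12 regions for each mark, drawn to scale along the window, with ZNF436kd bars upward and ctrl bars downward (means of 3 libraries each) and the approximate gene spans below. H3K4me3 at region 3, in the FGF8 span, was 15.0 in ZNF436kd and 6.16 in ctrl, and at region 11, at the upper end of the KCNIP2 span, 11.1 and 1.84; region 8 held the densest H3K4me3 in both groups (35.6 and 35.1).

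H3K4me3 was higher in knockdown cells at region 3 and region 11 and not at the strongest region between the genes. By edgeR's quasi-likelihood test, 8 of the 12 regions had enough H3K4me3 counts to be tested, and 2 of these, regions 3 and 11, passed an adjusted p of 0.05 in the higher direction, where 0.374% of all 26773 tested regions did. At 4 of the 8 (3, 4, 6 and 11) every knockdown library lay above every control library, where 8.49% of all tested regions were so placed, and at 1 (region 7) every knockdown library lay below, where 7.74% were. This contrast chose the window, so the outcome was fixed by the choice and nothing is read from these counts.

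Regions 1, 2, 10 and 12 had too few H3K4me3 counts for the test. The outermost region below, 1 (103528431 to 103528899), held 0, 2 and 5 counts in knockdown and 0 in every control library, so that knockdown library 1 lay with the controls. The outermost above, 12 (103617911 to 103619258), held 4, 1 and 4 counts in knockdown and 0, 2 and 0 counts in control libraries, which overlapped. Just outside the window, the nearest region below (103519022 to 103519596) held 10 H3K4me3 counts over the knockdown and 2 over the control libraries, and the nearest above (103646157 to 103647408) held 34 and 8. That upper neighbour had 23.5, 28.0 and 19.1 CPM of H3K27ac in knockdown and 2.07, 5.14 and 9.54 CPM in control libraries.

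Region 3 (103534651 to 103536761) lies wholly inside the FGF8 span. H3K4me3 there was 31.3, 27.4 and 36.6 CPM in knockdown libraries 1, 2 and 3, against 10.3, 11.7 and 17.0 CPM in control libraries 1, 2 and 3. Every knockdown library lay above every control library, and control library 3 was the highest of the controls. The means were 31.8 ± 4.62 CPM in knockdown and 13.01 ± 3.54 CPM in control cells (SD, n = 3 each), resting on 1122 and 481 counts. The fitted log2 fold change was 1.29 (SE 0.19), or 1.16 without control library 1 and 1.53 without control library 3.

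Beside it in the FGF8 span, region 4 (103537956 to 103538911) had 4.48, 6.53 and 4.63 CPM of H3K4me3 in knockdown and 3.02, 1.97 and 3.35 CPM in control libraries. Region 6 (103540042 to 103541298), which crosses the upper end of the span, had 6.72, 5.97 and 4.05 CPM in knockdown and 2.60, 2.70 and 3.70 CPM in control libraries. The groups did not overlap at either region, and the fitted log2 fold changes were 0.91 (SE 0.35) at region 4 and 0.89 (SE 0.34) at region 6. Region 5 (103538948 to 103539222), the narrowest, had overlapping groups, with means of 1.27 ± 0.77 CPM in knockdown and 1.77 ± 0.88 CPM in control cells. Region 2 (103529430 to 103530739), at the lower end of FGF8, held only 10 H3K4me3 counts over the knockdown and 13 over the control libraries. Summed over the 5 regions of the FGF8 span, H3K4me3 came to 43.6, 42.3 and 46.4 CPM in knockdown and 19.0, 17.5 and 26.2 CPM in control libraries.

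Region 11 (103598939 to 103604279) covers the upper 4762 bp of the KCNIP2 span and reaches beyond it, at the end where a gene on the reverse strand begins. H3K4me3 was 52.8, 56.3 and 68.5 CPM in knockdown libraries 1, 2 and 3, against 6.72, 7.44 and 15.3 CPM in control libraries 1, 2 and 3. The groups did not overlap, and control library 3 again had the most among the controls. Means were 59.2 ± 8.23 CPM in knockdown and 9.82 ± 4.76 CPM in control cells (SD, n = 3 each), from 2102 and 360 counts, with a fitted log2 fold change of 2.60 (SE 0.32), or 3.06 without control library 3.

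RefSeq holds 2 KCNIP2 start sites, 3929 bp apart, in the promoter table used here; of the pair of genes, FGF8 was not matched in it. The 250 bases before each start are shown because H3K4me3, which marks promoters, differed at the KCNIP2 end of the window. They are given 5′ to 3′ on the reverse strand in GRCh38.p14, promoter 1 at chr10:101843801-101844050 and promoter 2 at chr10:101839872-101840121, with motif matches in capitals.
KCNIP2 promoter 1: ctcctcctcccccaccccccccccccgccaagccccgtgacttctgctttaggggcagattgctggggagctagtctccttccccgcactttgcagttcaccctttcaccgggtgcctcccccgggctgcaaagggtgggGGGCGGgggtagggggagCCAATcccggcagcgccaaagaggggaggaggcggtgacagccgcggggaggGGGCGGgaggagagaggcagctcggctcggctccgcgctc
KCNIP2 promoter 2: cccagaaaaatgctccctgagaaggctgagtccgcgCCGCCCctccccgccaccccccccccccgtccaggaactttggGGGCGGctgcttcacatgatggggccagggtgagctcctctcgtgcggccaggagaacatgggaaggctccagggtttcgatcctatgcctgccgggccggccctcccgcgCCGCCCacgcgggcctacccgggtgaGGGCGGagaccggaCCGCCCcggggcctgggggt
Motifs were searched on both strands. The GC box, spelled GGGCGG, matched at 2 places in promoter 1 and 5 in promoter 2, and 42.6% of the 35116 promoters of the table held it. The CCAAT box, which is spelled as it is named, matched at 1 place in promoter 1 and was held by 32.0% of all promoters. The TATA box, spelled TATAAA, matched in neither and was held by 10.7%. The same was true of a GATA motif, spelled AGATAAG and held by 2.36%, and of an E-box, spelled CACGTG and held by 6.34%. No matches overlapped. CG dinucleotides, the sites of DNA methylation, numbered 16 in promoter 1 and 21 in promoter 2, where the median promoter had 11. G and C made up 71.2% and 72.4% of the letters (median 58.0%). Neither start was placed in hg19. The 3929 bp between them is less than the 4762 bp of the KCNIP2 span that region 11 covers, so both may lie in it.

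Region 9 (103589108 to 103591134), wholly inside the KCNIP2 span, had H3K4me3 in both groups, 28.4, 34.3 and 30.5 CPM in knockdown and 30.4, 35.3 and 34.6 CPM in control libraries. The groups overlapped (log2 fold change -0.11, SE 0.13). RefSeq also lists an antisense RNA gene, KCNIP2-AS1, overlapping KCNIP2, and histone marks do not tell strands apart. Region 10 (103598035 to 103598710), directly below region 11, held little H3K4me3, with 28 counts over the knockdown and 18 over the control libraries. Over the 3 regions of the KCNIP2 span, H3K4me3 summed to 81.8, 91.4 and 100.1 CPM in knockdown and 37.5, 42.8 and 51.1 CPM in control libraries.

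**Figure D2:**
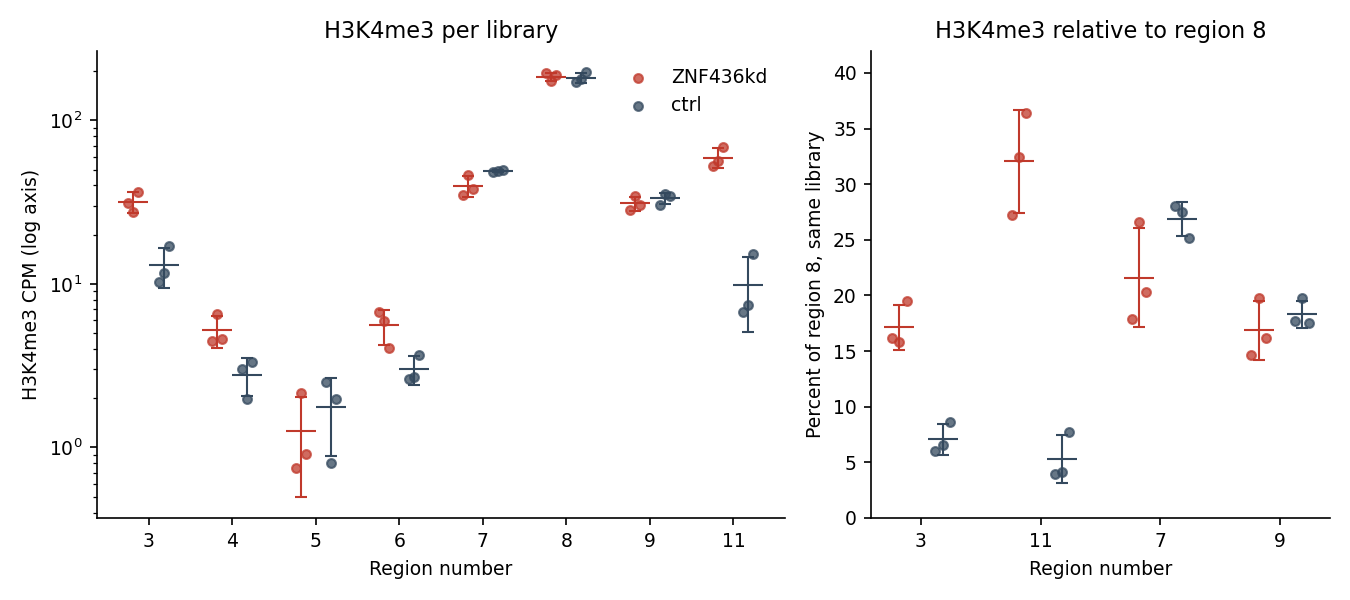
Left, H3K4me3 CPM (log axis) in each library at the 8 regions with enough counts, ZNF436kd left of ctrl. Right, the same counts as a percent of region 8 in the same library; points are libraries and bars the mean ± SD (n = 3). Regions 3 and 11 do not overlap between groups in either panel, and regions 8 and 9 overlap in CPM.

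Between the gene spans, H3K4me3 was not above its control level, and these regions were not assigned to NPM3 or OGA. Region 8 (103574544 to 103579745), the most strongly marked of the window, had 193.8, 173.3 and 188.1 CPM in knockdown and 171.7, 179.0 and 197.5 CPM in control libraries. These groups overlapped, and the log2 fold change was 0.02 (SE 0.07). At region 7 (103541461 to 103543903), 163 bp above region 6, all knockdown libraries (34.7, 46.0 and 38.2 CPM) lay below all control libraries (48.1, 49.2 and 49.7 CPM), with a log2 fold change of -0.30 (SE 0.12). The sum over the 10 regions other than 3 and 11 was 269.4 ± 0.90 CPM in knockdown and 273.7 ± 16.8 CPM in control cells. Region 8 made up most of it, with means of 185.1 and 182.7 CPM, so the sum says little about the weaker regions.

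Set against region 8 of the same library, which takes out any scaling between libraries, H3K4me3 at region 3 was 16.1%, 15.8% and 19.5% in knockdown and 6.02%, 6.52% and 8.62% in control libraries. Region 11 stood at 27.3%, 32.5% and 36.4% of region 8 in knockdown and at 3.91%, 4.16% and 7.75% in control libraries. Neither ratio overlapped between groups, and both rest on the H3K4me3 counts that chose the window. Regions 3 and 11 together made up 25.2% ± 2.55 of the window's H3K4me3 in knockdown and 7.58% ± 2.07 in control cells.

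The order of H3K4me3 density along the window differed between the groups mainly by these regions. Per kb, region 8 led in both, with 35.6 ± 2.04 CPM in knockdown and 35.1 ± 2.56 CPM in control cells. In knockdown cells, regions 7 (16.2 ± 2.37), 9 (15.3 ± 1.49) and 3 (15.0 ± 2.19) came next and lay within 1 SD of each other, and region 11 (11.1 ± 1.54) followed. In control cells, regions 7 (20.1 ± 0.33) and 9 (16.5 ± 1.31) kept those places, while regions 5 (6.42 ± 3.19) and 3 (6.16 ± 1.68) did not differ beyond their spread. Region 11 stood at 1.84 ± 0.89 CPM per kb in control cells. Among all 153244 regions, region 11 was at the 92.2 percentile of H3K4me3 density in knockdown and the 87.9 percentile in control cells. Region 3 was at the 93.3 and 90.5 percentiles. Only 26773 of all regions had enough H3K4me3 counts to be tested, so a high percentile can go with little signal. Region 10, with 18 counts over the control libraries, stood at the 82.5 percentile in control cells.

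H3K27ac did not pass the test at any region of the window. Of 9 regions tested, 0 passed an adjusted p of 0.05 in edgeR, where 0.0114% of all 61484 tested regions did, and the adjusted p-values ran from 0.229 to 0.978. DESeq2 and limma-voom also called 0 of them, with 669 and 266 called over all regions. The knockdown libraries lay above all controls at 3 of the 9 (2, 8 and 11), where 9.14% of all tested regions were so placed. At an unadjusted p under 0.05, 4 of the 9 (regions 2, 8, 11 and 12) had more H3K27ac in knockdown cells and 0 had less, against 5.91% and 5.35% of all tested regions. The 4 lie in the same libraries and close together, and a region can enter the test through high knockdown counts alone. The log2 fold change was above 0 at 8 of the 9, where 47.2% of all tested regions were.

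At region 11, the KCNIP2 end with the larger H3K4me3 difference, H3K27ac was 25.5, 19.7 and 25.6 CPM in knockdown and 8.96, 11.7 and 8.81 CPM in control libraries. The groups did not overlap, and here control library 3 lay with the other controls. The log2 fold change was 1.26 (SE 0.41), which missed the threshold (adjusted p = 0.229, edgeR). Set against region 8 of the same library, H3K27ac at region 11 was 28.8%, 20.6% and 26.6% in knockdown. In control libraries this ratio was 18.1%, 26.0% and 11.3%, so the groups overlapped. H3K27ac at region 8 was itself higher in every knockdown library. Region 10, directly below region 11, had 7.82, 3.41 and 5.24 CPM in knockdown and 1.03, 0 and 1.84 CPM in control libraries, too few counts for the test.

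At region 3, in the FGF8 span, H3K27ac was low, with 9.18, 6.44 and 1.85 CPM in knockdown and 1.38, 5.87 and 3.30 CPM in control libraries. The groups overlapped widely (log2 fold change 0.72, SE 0.80, adjusted p = 0.803, edgeR). Per kb, region 3 held 2.76 ± 1.76 CPM of H3K27ac in knockdown and 1.67 ± 1.07 CPM in control cells. These lie at the 46.2 and 32.0 percentiles of all regions, while its H3K4me3 was above the 90 percentile in both groups. As 61484 regions had enough counts in H3K27ac and 26773 in H3K4me3, percentiles of these marks are not on the same footing. Region 6, where the FGF8 span ends, had 8.84, 12.1 and 14.2 CPM of H3K27ac in knockdown and 2.76, 3.30 and 9.91 CPM in control libraries; control library 3 lay among the knockdown values (log2 fold change 1.14, SE 0.61, adjusted p = 0.513, edgeR), and without it the log2 fold change was 1.98 (adjusted p = 0.139, edgeR). Region 2, at the lower end of FGF8, had 8.16, 6.44 and 6.78 CPM in knockdown and 3.79, 1.47 and 0 CPM in control libraries, with groups that did not overlap (log2 fold change 1.99, SE 0.90, adjusted p = 0.410, edgeR).

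The most H3K27ac CPM of the window lay at region 8, between the genes, with 88.4, 95.5 and 96.2 CPM in knockdown and 49.6, 45.2 and 77.8 CPM in control libraries. The groups did not overlap, and control library 3 was nearest to the knockdown libraries (log2 fold change 0.70, SE 0.25, adjusted p = 0.275, edgeR). In H3K4me3 its groups overlapped. Region 9, inside KCNIP2, had 32.3, 29.5 and 22.8 CPM of H3K27ac in knockdown and 29.98, 20.2 and 37.1 CPM in control libraries, which overlapped fully (log2 fold change -0.04, SE 0.33). Per kb, region 8 held 17.9 ± 0.82 and region 9 held 13.9 ± 2.41 CPM in knockdown cells, and in control cells, with 11.1 ± 3.40 and 14.3 ± 4.18 CPM, the order was the other way round within the spread. Region 7, below them, had 18.4, 20.1 and 28.7 CPM in knockdown and 18.6, 12.5 and 9.91 CPM in control libraries, and the groups overlapped (log2 fold change 0.71, SE 0.41). Region 12, above KCNIP2, had 6.80, 9.09 and 16.0 CPM in knockdown and 0.345, 0.734 and 8.44 CPM in control libraries, where control library 3 stood apart from the other controls (log2 fold change 1.74, SE 0.83, adjusted p = 0.436, edgeR). Region 1, below FGF8, had 1.02, 0.379 and 4.62 CPM in knockdown and 2.07, 1.10 and 1.47 CPM in control libraries, which overlapped, and was not tested.

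Without control library 3, regions 8 and 12 passed in H3K27ac. The log2 fold changes were then 1.02 (SE 0.26, adjusted p = 0.0364, edgeR) at region 8 and 4.25 (SE 0.95, adjusted p = 0.0173, edgeR) at region 12. Without that library 1.54% of all tested regions were called higher. It was picked by these same values, so both passes are a description only. Leaving out any other library called 0 regions of the window in H3K27ac, and 0 to 92 over all regions.

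**Figure D3:**
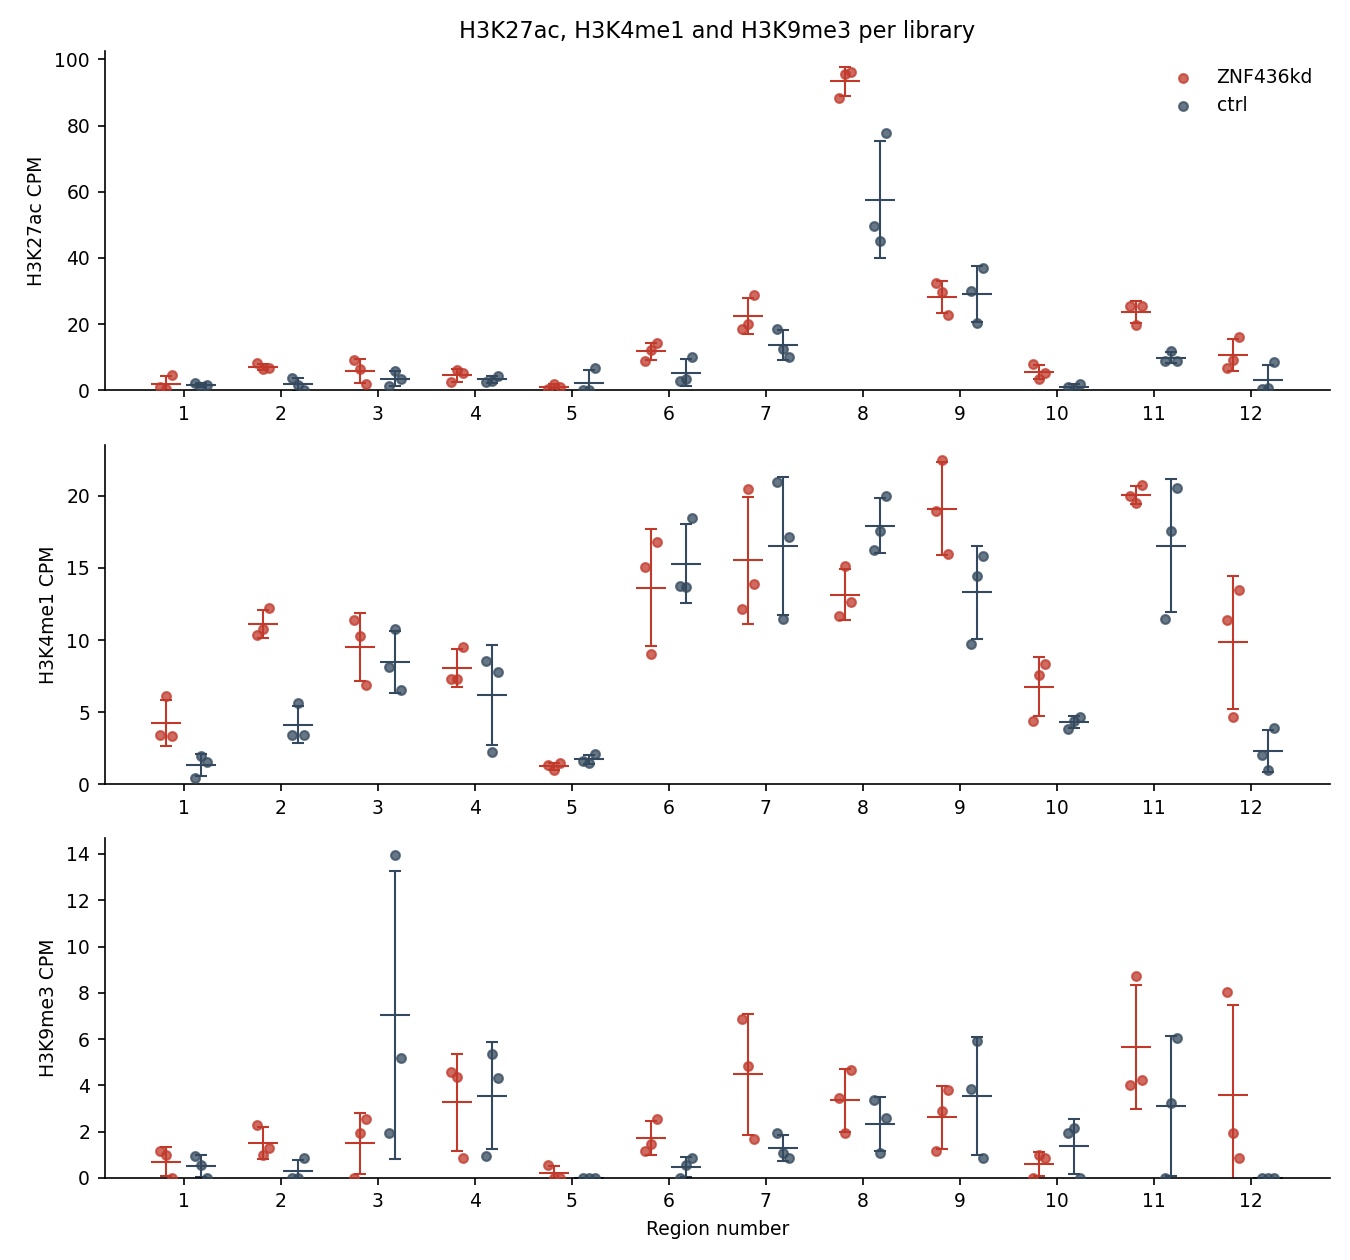
CPM of H3K27ac, H3K4me1 and H3K9me3 in each library at all 12 regions, ZNF436kd left of ctrl; points are libraries and bars the mean ± SD (n = 3). H3K27ac at region 11 does not overlap between groups, at region 8 control library 3 (77.8 CPM) lies near the knockdown values, and H3K9me3 stays below 14 CPM throughout.

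H3K4me1 gave 0 calls in the window among 11 tested regions in edgeR, where 0% of all 85815 tested regions were called, and the adjusted p-values ran from 0.160 to 0.943. DESeq2 and limma-voom called 0 here too, with 94 and 6 called over all regions. At an unadjusted p under 0.05, 3 regions (1, 2 and 12) had more H3K4me1 in knockdown cells and 0 had less, against 4.91% and 5.58% of all tested regions. None of these is region 3 or region 11. Region 1 held 54 counts over the knockdown and 16 over the control libraries, and region 12 held 128 and 28. Both could enter the test through their knockdown counts alone. The knockdown libraries lay above all controls at 4 tested regions (1, 2, 9 and 12), where 7.9% of all tested regions were so placed, and below all controls at 1 (region 8), where 7.68% were. The log2 fold change was above 0 at 8 of the 11, where 47.8% were. Region 5 had too few counts for the test. It held 1.30, 0.977 and 1.45 CPM in knockdown and 1.58, 1.47 and 2.08 CPM in control libraries, without overlap.

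Region 12 had 11.4, 4.64 and 13.5 CPM of H3K4me1 in knockdown and 2.03, 0.977 and 3.90 CPM in control libraries, without overlap (log2 fold change 2.10, SE 0.53, adjusted p = 0.160, edgeR). It passed without control library 3 (log2 fold change 2.68, adjusted p = 0.00621, edgeR), where 1.61% of all tested regions were higher, and with no filter on low counts (2.08, adjusted p = 0.0482), where 0.096% were. Region 2 had 10.4, 10.7 and 12.2 CPM in knockdown and 3.38, 5.62 and 3.38 CPM in control libraries, again without overlap (1.43, SE 0.43, adjusted p = 0.246, edgeR). Region 1, below FGF8, had 3.37, 6.11 and 3.32 CPM in knockdown and 0.451, 1.95 and 1.56 CPM in control libraries (1.68, SE 0.72, adjusted p = 0.409, edgeR).

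At regions 3 and 11, H3K4me1 did not separate the groups. Region 3 had 11.4, 10.3 and 6.85 CPM in knockdown and 8.11, 10.7 and 6.50 CPM in control libraries (log2 fold change 0.16, SE 0.39, adjusted p = 0.913, edgeR). Region 11 had 20.0, 19.5 and 20.7 CPM in knockdown and 11.5, 17.6 and 20.5 CPM in control libraries (0.28, SE 0.29, adjusted p = 0.759, edgeR). Both pairs of groups overlapped, and at region 3 the SE was larger than the log2 fold change. With 1 library left out, region 3 ran from 0.0013 (without control library 3) to 0.37 (without control library 2) and region 11 from 0.068 (without control library 1) to 0.46 (without control library 3). Region 9, inside KCNIP2, had 18.9, 22.5 and 16.0 CPM in knockdown and 9.69, 14.4 and 15.8 CPM in control libraries, with groups that did not overlap by a narrow margin (0.52, SE 0.31, adjusted p = 0.563, edgeR). Region 6 had 15.0, 9.04 and 16.8 CPM in knockdown and 13.7, 13.7 and 18.4 CPM in control libraries, which overlapped. Per kb it held the densest H3K4me1, with 10.8 ± 3.24 CPM in knockdown and 12.2 ± 2.18 CPM in control cells, and its log2 fold change was -0.16 (SE 0.33). Region 7 had 12.2, 20.5 and 13.9 CPM in knockdown and 21.0, 11.5 and 17.1 CPM in control libraries, fully overlapping (-0.09, SE 0.32). Region 8, with the most H3K4me3, had little H3K4me1 for its width, 2.53 ± 0.34 CPM per kb in knockdown and 3.45 ± 0.37 CPM per kb in control cells, with every knockdown library below every control library (log2 fold change -0.45, SE 0.30, adjusted p = 0.623, edgeR).

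**Figure D4:**
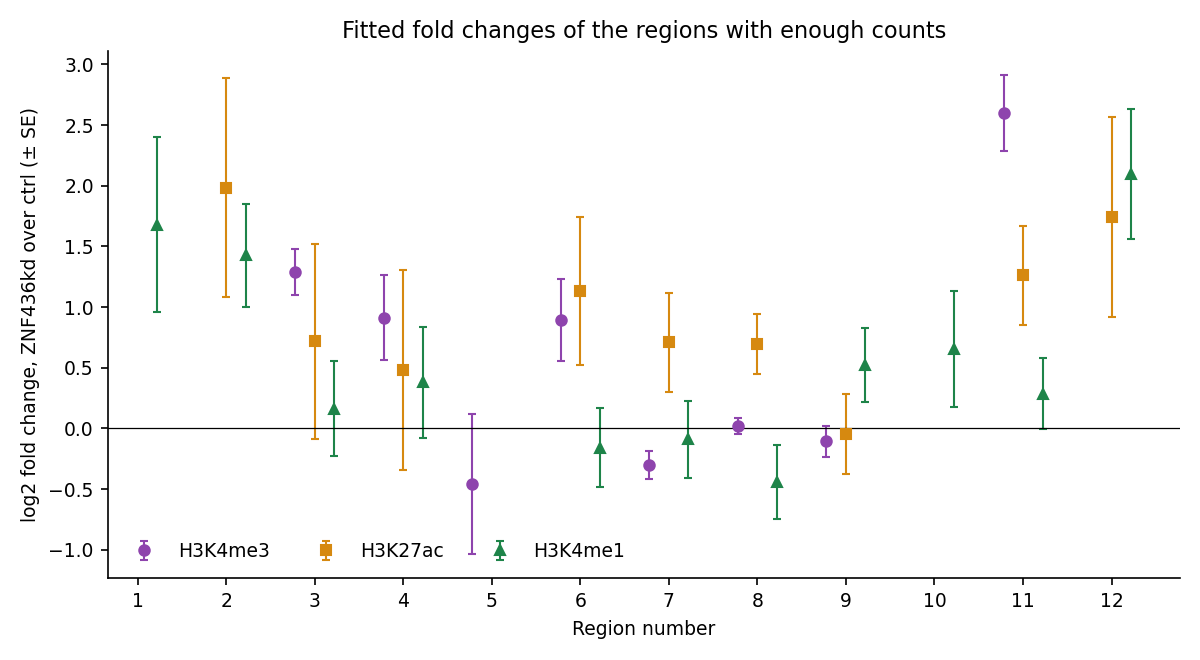
Fitted log2 fold change (ZNF436kd over ctrl, ± SE) of each region with enough counts, for H3K4me3, H3K27ac and H3K4me1. H3K4me3 is highest at region 11 (2.60) and region 3 (1.29); H3K27ac is 1.26 at region 11 and H3K4me1 0.28 there, neither past the threshold.

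H3K9me3 was low over the whole window, and none of the 12 regions passed the filter on low counts, while 0.00982% of the 30565 regions tested elsewhere were called. With no filter, all 12 were tested and 0 were called in edgeR, where 0.00204% of all 147287 tested regions were, and the adjusted p-values ran from 0.792 to 0.993. At an unadjusted p under 0.05 there were 2, region 3 with less and region 12 with more H3K9me3 in knockdown cells, where 5.61% of all tested regions passed. Region 3 had 0, 4 and 6 counts in knockdown and 4, 26 and 12 counts in control libraries, or 1.49 ± 1.33 and 7.03 ± 6.23 CPM. Control library 2 held 26 of the 42 control counts, the most of any library at any region of the window. At regions 2 and 6 of the FGF8 span the order was the other way. Region 2 had 4, 2 and 3 counts in knockdown and 0, 0 and 2 counts in control libraries. Region 6 had 2, 3 and 6 counts in knockdown and 0, 1 and 2 counts in control libraries. At both, the lowest knockdown and the highest control library held 2 counts each. At region 4 of that span the groups overlapped, with 8, 9 and 2 counts in knockdown and 2, 10 and 10 counts in control libraries. Region 5 held 1 count over the knockdown and 0 over the control libraries. In CPM, every knockdown library lay above every control library at 3 of the 12 regions (2, 6 and 12). Of the regions that passed the filter, 7.17% were so placed. None of these 12 passed it, so that share is over regions with more counts and is no measure for them. Region 1 had 2, 2 and 0 counts in knockdown and 2, 1 and 0 counts in control libraries. Region 11 had 7, 18 and 10 counts in knockdown and 0, 6 and 14 counts in control libraries, which overlapped. Region 7 had 12, 10 and 4 counts in knockdown and 4, 2 and 2 counts in control libraries, which met at 4. Region 12 had 14, 4 and 2 counts in knockdown and 0 in every control library, where a count of 0 allows up to 0.479 CPM over the control group, by counting error only. Of these 20 counts, 14 came from 1 library.

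The regions whose signal was most like that of regions 3 and 11 were ranked by Pearson's r of log2 CPM across the 24 libraries, each mark centred on its own mean. These include the H3K4me3 libraries that chose both regions and share depth and scaling, so the values of r only describe the ranking. Among 3544 regions outside the window with enough counts in all marks, the most alike to region 3 were on chromosome 19 (18060878 to 18064628, r = 0.73), chromosome 8 (84822976 to 84828503, r = 0.70) and chromosome X (49124901 to 49127909, r = 0.68). For region 11 they were on chromosome 20 (55978958 to 55988252, r = 0.79), chromosome 7 (61814760 to 61820523, r = 0.79) and chromosome 1 (2474371 to 2479975, r = 0.78). Regions 3 and 11 themselves had too few H3K9me3 counts for the test, so their part of r from those libraries rests on few counts. Genes at these positions were not assigned.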

How the data were processed

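CUT&Tag counts for 4 histone marks in 24 libraries were used, grouped and numbered by their titles. In the deposited files the authors give raw, unscaled read counts over 1 list of regions on hg19. Per the submitters' processing notes the tools were Bowtie2 2.4.5, bedtools 2.30.0 and deepTools 3.5.4, without their roles; the sources used here do not say how regions were defined or reads filtered. Starts were raised by 1 so that positions count from 1. Even counts were 51.9% to 65.9% of the counts above 0, so each mate of a read pair may have been counted, and an alternative halved the counts.

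Each mark was fitted on its own 6 libraries over all regions with edgeR 4.0.16 (R 4.3.3): filterByExpr, TMM scaling, robust quasi-likelihood test, Benjamini-Hochberg adjustment over all tested regions, threshold 0.05. The SE is the log2 fold change over the square root of F. CPM use TMM-scaled totals over the regions that passed the filter, and log2 CPM a prior count of 2. Alternatives were other scaling (RLE, library totals), other tools (DESeq2 1.42.0; limma-voom in limma 3.58.1), looser and stricter count filters, a replicate block, halved counts and leaving out each library. Per mark and segment of the window, the region with the most CPM is given in full, as are the regions that passed in H3K4me3 and others chosen after their values were seen. The members, lists and tests were chosen with earlier results of these data known. Gene and marker lists need an hg19 annotation and were not run. Gene spans are approximate. No label states that replicates were separate cultures; p-values then reflect only how these libraries vary, possibly for technical reasons. Libraries of a group differed by more than sampling noise (chi-square per degree of freedom 3.09 to 10.5). Floors of 3 counts cover counting error only.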

Additional observations from a re-analysis of the deposited data

How the results depend on the processing

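Of 15 named log2 fold changes refitted under up to 14 alternatives, 187 of 203 refits kept direction and side of the threshold, 7 changed sign, 5 lost and 4 gained a call. Only H3K4me3 regions 3 and 11 had passed in the main fit, so for most values keeping their side meant staying uncalled. Where DESeq2 gave no adjusted p, at H3K27ac region 3 and H3K4me1 region 1, the refit was counted as uncalled. Leaving out 1 library gave 0 to 2 window calls in H3K4me3 and in H3K27ac, 0 to 1 in H3K4me1 and 0 in H3K9me3. In H3K4me3, whose calls the choice of the window fixed, region 11 no longer passed without knockdown replicate 1, 2 or 3 or control replicate 2, and region 3 without knockdown replicate 3, while their log2 fold changes stayed at 2.3998 to 3.06 and 1.16 to 1.53; with 5 libraries the test has fewer samples. The H3K4me1 count became 1 with no filter; the cause was not tested. Every sign change came from leaving out 1 library and sat at values near 0: H3K4me3 region 8 ran from -0.018 to 0.076, H3K27ac region 9 from -0.24 to 0.20, H3K4me1 region 6 from -0.348 to 0.0695 and H3K4me1 region 7 from -0.33 to 0.11. In H3K27ac, region 12 ran from 1.22 to 4.25, region 3 from 0.25 to 1.31 and region 6 from 0.84 to 1.98.

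The replicate numbers did not pair the libraries (same-number deviations correlated at -0.10 to 0.06). With the replicate block, window calls were 0 in H3K27ac, H3K4me1 and H3K9me3, as without it. Calls over all regions became 177, 102, 94 and 6 in H3K4me3, H3K27ac, H3K4me1 and H3K9me3, from 150, 7, 0 and 3. Over all alternatives other than leaving out a library, calls over all regions ran from 140 to 666 in H3K4me3, 4 to 669 in H3K27ac, 0 to 208 in H3K4me1 and 2 to 49 in H3K9me3; leaving out a library gave 27 to 805, 0 to 1412, 0 to 2443 and 4 to 20. The filter on low counts, not a test, leaves out H3K9me3 throughout the window. It also leaves out H3K4me3 at regions 1, 2, 10 and 12, H3K27ac at regions 1, 5 and 10 and H3K4me1 at region 5. Some alternatives test these and call none.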
